A study of Mus musculus with 12 samples.

Results

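A set of 732 circular RNAs (circRNAs) of the mouse retina was read repeatedly in this study although circBase, a public catalogue of circRNAs, did not list them. They are the circRNAs without a circBase entry that had at least 1 read across the back-splice junction in 6 to 11 of the 12 samples, out of 12510 circRNAs in all. The members were chosen by these junction reads and by the missing entry, without use of the group labels. How often and how deeply they were read is therefore a description, and tests are given only for differences between groups. Retinas came from 4 groups of 3 samples: C3H wild-type mice, Prph rd2 mice killed on postnatal day 29, Pde6b rd10 mice on day 23 and Pde6b rd1 mice on day 13. The C3H samples are labelled with days 13, 23 and 29, 1 sample each, so that only 1 control has the age of each model. Pde6b rd1 carries a retroviral insertion in Pde6b, the gene of a catalytic subunit of the rod phosphodiesterase, and Pde6b rd10 a point mutation at the catalytic site of the same enzyme. Prph rd2 carries a mutation in Prph2, whose product builds the discs of the photoreceptor outer segment. All 3 mutations are in the germ line. By the study's methods Pde6b rd1 and Prph rd2 are on the C3H background and Pde6b rd10 is on C57Bl6/J, while the labels also give Prph rd2 as C57BL6/J. For Pde6b rd10, mutation and strain cannot be told apart. Mice were used without regard to sex, and the sources used here do not say how many animals a sample holds or whether samples of a group are separate animals, so that p-values measure only the spread between these samples, which may be technical.

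A circRNA forms when the splicing machinery joins the end of an exon back to the start of the same or an earlier exon. The closed ring has no free end and lasts longer than most linear RNAs, and many circRNAs are at their most abundant in neural tissue, the retina included. The gene from which it is made, here called the host, also makes linear mRNA, and the 2 products share exons. Only reads across the back-splice junction belong to the ring alone, so that circRNAs were counted by these reads.

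The junctions on which the largest differences below rest are shown first, from RefSeq GRCm38.p6 (mm10), read 5′ to 3′ on the strand of the host. Lower case is the end of the last circular exon, and capitals are the start of the first circular exon to which it was joined. The first set shows that both Ano3 circRNAs of the set and an Ano3 circRNA listed in circBase join different exon ends to 1 start, and the second shows the same for Lrba. The last lines give the 4 other junctions discussed most. They are Ano3 chr2:110738771-110795071 (minus strand, 56301 bases), Ano3 chr2:110761443-110795071, the listed Ano3 chr2:110756938-110795071, Lrba chr3:86291427-86445473 (plus strand), Lrba chr3:86291427-86417996, Lrba chr3:86291427-86542711, the listed Lrba chr3:86291427-86328356, Cerkl chr2:79354922-79368811 (minus strand), Polb chr8:22646664-22647412 (minus strand), Gucy2f chrX:142156388-142161931 (minus strand) and Fam193a chr5:34419998-34466447 (plus strand).
Ano3 56.3 kb: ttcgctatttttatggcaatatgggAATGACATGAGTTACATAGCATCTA
Ano3 33.6 kb: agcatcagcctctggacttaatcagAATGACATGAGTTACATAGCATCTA
Ano3 38.1 kb, listed in circBase: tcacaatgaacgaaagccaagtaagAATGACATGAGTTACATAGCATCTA
Lrba 154 kb: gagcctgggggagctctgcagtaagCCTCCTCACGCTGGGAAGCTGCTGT
Lrba 127 kb: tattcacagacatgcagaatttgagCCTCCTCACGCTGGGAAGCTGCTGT
Lrba 251 kb: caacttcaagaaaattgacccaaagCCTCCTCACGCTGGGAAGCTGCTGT
Lrba 36.9 kb, listed in circBase: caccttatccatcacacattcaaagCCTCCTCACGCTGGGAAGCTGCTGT
Cerkl 13.9 kb: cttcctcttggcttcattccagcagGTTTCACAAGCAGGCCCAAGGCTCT
Polb 0.749 kb: tgcgcgtgtgcgtgtGTAGGAACTGTTTCC
Gucy2f 5.54 kb: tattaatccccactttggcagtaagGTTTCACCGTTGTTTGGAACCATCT
Fam193a 46.5 kb: ccagcagttcacttgCAGGGCCAAGATTTT

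Between 9819 and 25009 junction reads and between 17049495 and 24755890 gene reads were counted per sample. Junction reads as a share of gene reads, on the CPM scale, were 839 ± 94.7 in C3H, 840 ± 63.2 in Prph rd2, 1007 ± 40.1 in Pde6b rd10 and 617 ± 59.7 in Pde6b rd1 (mean ± SD, n = 3). The smallest amount called a level here, 3 reads, was 120 to 306 TPM, the counts-per-million scale of junction reads, and intervals cover counting error only. Of the targeted genes, Pde6b lay at 241 to 245 FPKM in C3H and 56.7 to 57.6 FPKM in Pde6b rd1, and Prph2 at 885 to 976 FPKM in C3H and 421 to 482 FPKM in Prph rd2. All 5 rod markers were read in every sample, as retina should show, with summed levels of 4184 to 4305 FPKM in C3H, 2678 to 2904 in Prph rd2, 3737 to 3931 in Pde6b rd10 and 2055 to 2100 in Pde6b rd1. The 5 microglia markers summed to 18.1 to 19.1 FPKM in C3H and 49.1 to 52.0 FPKM in Pde6b rd10, and the 3 lens markers to at most 2.45 FPKM. Sex makeup moved with the groups and cannot be told apart from them. Xist, the RNA of the inactive X, was at 0.02 to 0.03 FPKM in C3H, 86.6 to 109 in Prph rd2, 40.0 to 45.0 in Pde6b rd10 and 212 to 223 in Pde6b rd1, and the 4 Y-linked markers were at 0 in all Pde6b rd1 samples. Each Pde6b rd10 and Prph rd2 sample held Xist together with Y-linked RNA, such as Ddx3y at 10.8 to 13.7 and 6.08 to 7.20 FPKM, and so held RNA of more than 1 animal.

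Members were read in every sample, and Pde6b rd1 held the fewest. The number with at least 1 read was 495, 548 and 460 in C3H, 411, 293 and 347 in Pde6b rd1, 531, 457 and 488 in Pde6b rd10, and 468, 509 and 510 in Prph rd2. The 3 Pde6b rd1 samples lay below all others, and they were also the samples with the fewest junction reads apart from the third C3H sample (14538 reads against 9819 to 14966). With every library thinned to 9819 junction reads, a step added after the data were seen, the expected number was 386 ± 1.51 in C3H, 370 ± 3.48 in Prph rd2, 358 ± 11.3 in Pde6b rd10 and 321 ± 26.2 in Pde6b rd1 (mean ± SD, n = 3). At this equal depth the Pde6b rd1 samples (293 to 345) still lay below the other 9, and the Pde6b rd10 samples (349 to 371) overlapped those of Prph rd2 (367 to 374). Thinned alike, circRNAs that circBase lists and that were read in equally many samples numbered 805 to 950 in Pde6b rd1. In the other groups they numbered 912 to 971, so that there Pde6b rd1 overlapped the rest.

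Members took 16250 of 214352 junction reads, or 7.58%. Their share per sample was 7.86, 7.93 and 8.27% in C3H, 7.23, 6.39 and 7.06% in Pde6b rd1, 7.50, 7.58 and 7.13% in Pde6b rd10, and 8.11, 7.80 and 7.48% in Prph rd2. The 95% Wilson interval of the lowest share was 5.92 to 6.89%. C3H did not overlap Pde6b rd1 or Pde6b rd10 in this share but did overlap Prph rd2, and 3 samples against 3 cannot give a two-sided exact permutation p below 0.10. The 1636 circRNAs that circBase does list and that were read in equally many samples, called listed circRNAs of equal detection below, took 20.9 to 23.6% per sample.

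**Figure D1:**
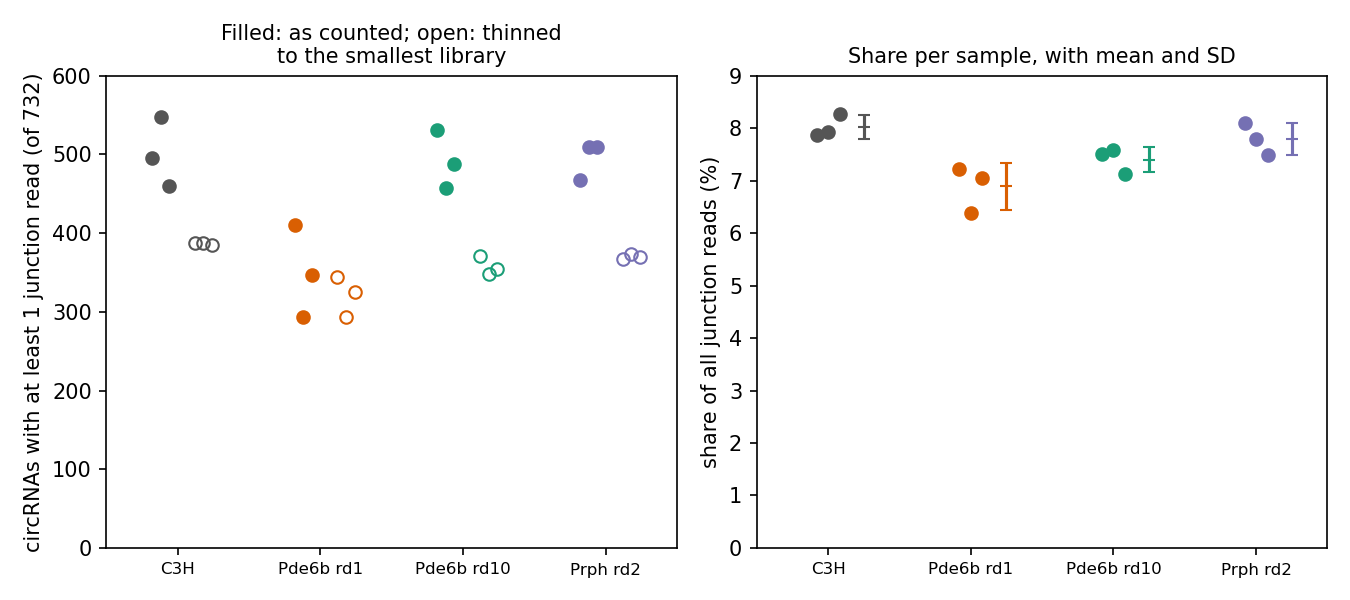
Left, number of the 732 members with at least 1 junction read in each of 12 samples by group, as counted (filled) and thinned to 9819 reads (open); right, the share (%) of all junction reads on members per sample, with mean and SD (n = 3). The Pde6b rd1 samples lie lowest in number, at 293 to 411 as counted, and the C3H samples span 7.86 to 8.27% in share.

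Most members were rare. The median member had 16 junction reads over all 12 samples, with a range of 7 to 330, against a median of 21 for listed circRNAs of equal detection. Just outside the lower limit, 352 unlisted circRNAs were read in 5 samples with a median of 8 reads, and just inside it 267 were read in 6 samples with a median of 11. At the upper limit, 59 were read in 11 samples with a median of 39 reads, and outside it 66 were read in all 12 with a median of 87. With at least 2 reads as the minimum per sample, 291 circRNAs would have met the rule, 268 of which are members here.

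Members spanned longer stretches of the genome than listed circRNAs of equal detection. The median span from first to last base was 13632 against 11057 bases, and 101 of 732 members (13.8%, 95% Wilson interval 11.5 to 16.5%) against 107 of 1636 (6.54%, 5.44 to 7.84%) spanned over 50 kb. Above 100 kb lay 52 members (7.10%) and 0 of 1636 listed circRNAs, which allows a share of up to 0.234%. The longest of all 4644 listed circRNAs spanned 99568 bases, while the longest unlisted circRNA of the table spanned 1090605. What lengths the catalogue's own sources could hold was not examined here. No test is given, since circRNAs are not replicates.

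**Figure D2:**
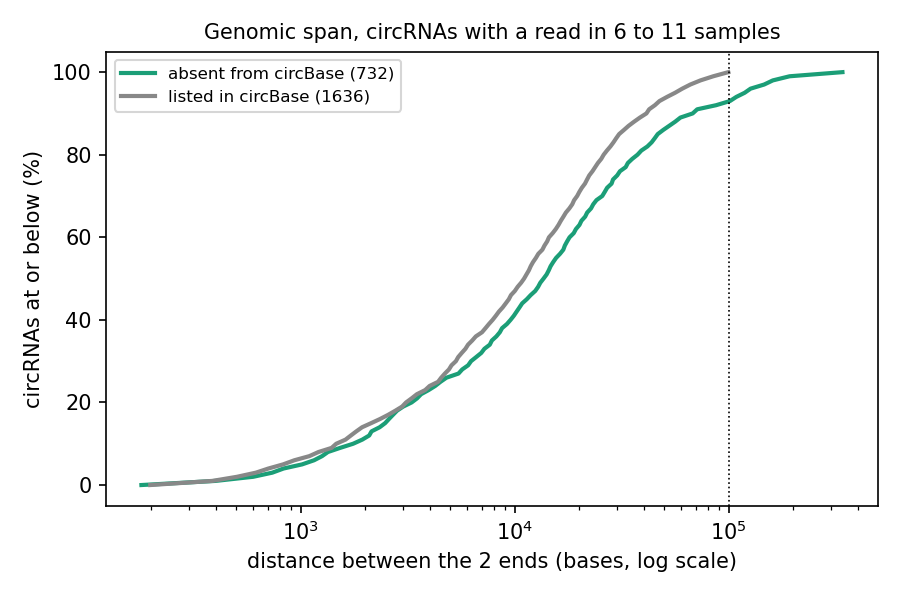
Cumulative share (%) of circRNAs by genomic span in bases, on a log10 axis, for the 732 members and the 1636 listed circRNAs of equal detection, with a dotted line at 100 kb. The member curve lies to the right of the listed one over its upper part, and the listed curve ends at 99568 bases while 7.10% of members lie beyond 100 kb.

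The 3 longest members were Nrxn3 (339965 bases, 11 annotated exons), Lrba (251285 bases, 36 annotated exons) and Cdh18 (237370 bases, 7 annotated exons). Nrxn3 encodes a presynaptic adhesion protein and Cdh18 a cadherin. Nrxn3 had 2, 3 and 3 junction reads in C3H, 6, 3 and 9 in Pde6b rd1, 0, 0 and 2 in Pde6b rd10 and 0, 2 and 1 in Prph rd2. It was read in all C3H and Pde6b rd1 samples and passed no call. Cdh18 had 0 to 2 reads per sample. The shortest members were Syt1 (180 bases, 1 exon), from the gene of a synaptic calcium sensor, with 0 to 3 reads per sample, and Tro (269 bases), with 0 to 5.

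By annotation, members were mostly multi-exon rings of coding sequence. Exon numbers, spliced lengths and coding content, here and elsewhere, count every annotated exon between both ends in 1 transcript. Which inner exons a ring holds was not observed. Of 732, 719 began and ended at annotated exon ends, and 717 did so within 1 annotated transcript. Among these the median was 5 exons and 722 spliced bases, against 4 exons and 610 bases in listed circRNAs of equal detection. A single exon made up 16 of 717 members (2.23%) against 96 of 1624 (5.91%), and over 10 exons made up 80 (11.2%) against 91 (5.60%). Exon 2 was the first circular exon in 148 members (20.6%) and in 516 listed circRNAs (31.8%). The annotated exons held coding sequence only in 602 members (84.0%) and reached the 5′ UTR in 96. The introns on either side were shorter than in listed circRNAs, with medians of 8633 against 12010.5 bases upstream and 6963 against 9714 bases downstream. The repeat-masked share of the nearest 500 bases was similar, with medians of 22.2 and 23.5%.

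The splice letters set a few members apart. Of 732, 712 (97.3%) had the usual AG before the first circular exon and GT after the last, and so had all 4644 listed circRNAs. Another 11 had AG and GC, among them 3 from Cerkl, 2 from Grik1 and the Asph and Frem1 circRNAs, and 9 had other letters. Of the 13 members with an end outside annotated exon ends, Fam193a, Polb and Pbrm1 had the most reads. The Fam193a circRNA starts 3 bases, CAG, before an annotated exon, and the circRNA that starts at that exon is also a member, with 17 against 154 reads. Besides this pair, 6 members had another circRNA within 10 bases, both ends summed, and 2 of these lay beside a listed one. How the alignment divided reads between such pairs was not tested.

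Most members shared no end with a listed circRNA. Both ends occurred in listed circRNAs in 52 members, only the start in 133, only the end in 133 and neither in 414. The 732 members came from 515 hosts, of which 398 gave 1 member, 75 gave 2 and 42 gave 3 or more. On 171 hosts, with 231 members, the table held no listed circRNA, and the other 501 members (68.4%) shared the host with a listed one.

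Among the hosts with the most members, Lrba gave 9, Dmd, the dystrophin gene, 8, Prom1, which encodes a protein of disc formation, 7, and Firre, a noncoding RNA gene of the X, 6, as many as Pcdh15 and Vps13b. Few members of Dmd and Firre were tested. In Pde6b rd1, Pde6b rd10 and Prph rd2 these were 1, 2 and 3 of Dmd and 3, 3 and 4 of Firre, and none was called. Of 5 tested Prom1 members, 1 was lower in Pde6b rd1, where 5.25% of all circRNAs tested were lower.

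Genes of the photoreceptor list (39 genes) gave 17 members on 7 hosts, the cilium and transport list (28 genes) 38 members on 7 hosts, the synapse list (21 genes) 19 members on 8 hosts and the chromatin and splicing list (13 genes) 6 members on 4 hosts. The microglia list (10 genes) and the Mueller glia list (8 genes) gave no circRNA of any kind. Most circRNAs of the first lists were unlisted: 107 of 115 for photoreceptor genes, 182 of 210 for cilium genes and 133 of 191 for synapse genes. In Pde6b rd1, 2 of 9 tested members of the photoreceptor list (Gucy2f and Prom1) and 1 of 5 of the synapse list (Cacna1f) were lower, none of these was higher, and none of 17 of the cilium list was called, where 5.25% of all circRNAs tested were lower and 1.12% higher. In Pde6b rd10, 1 of 23 tested members of the cilium list was higher (Rpgrip1) and 1 lower (Dync2h1), 1 of 9 of the synapse list was higher (Rims2), and none of 14 of the photoreceptor list was called, where 6.71% of all were higher and 5.13% lower. In Prph rd2 no member of these 3 lists was called, out of 13 photoreceptor, 20 cilium and 8 synapse members tested. No chromatin list member was called, out of 0, 4 and 2 tested.

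The 2 most read members of the cilium, synapse and chromatin lists had reads in most groups. Bbs9, of the cilium transport complex BBSome, had 0 to 10 reads per sample in C3H, 5 to 10 in Prph rd2, 0 to 9 in Pde6b rd10 and 0 to 1 in Pde6b rd1. The most read Dync2h1 circRNA, from the gene of the motor of retrograde transport in cilia, had 0 to 8 reads per sample over all groups, Dmd 0 to 8, and Grm6, the glutamate receptor of ON bipolar cells, 0 to 8. Of Kmt2c, a histone methyltransferase, 2 members had 0 to 7 and 0 to 5 reads. None of these 6 was called in a comparison that tested it.

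Several of the most read members were missing from single samples. The Ptov1 circRNA (5 exons, 1245 bases) had 0, 42 and 34 reads in C3H, 34, 27 and 20 in Pde6b rd1, 48, 27 and 27 in Pde6b rd10 and 29, 22 and 20 in Prph rd2. Only the first C3H sample was at 0, and the groups overlapped. The Mllt10 circRNA, from the gene of a cofactor of a histone methyltransferase, had 20, 20 and 0 reads in C3H, 0, 20 and 0 in Pde6b rd1, 26, 22 and 20 in Pde6b rd10 and 0, 10 and 0 in Prph rd2. The Ddb1 circRNA, from the gene of a ubiquitin ligase adaptor, had 0, 0 and 18 reads in C3H, 0, 0 and 12 in Pde6b rd1, 0, 15 and 12 in Pde6b rd10 and 22, 39 and 0 in Prph rd2. Both moved between 0 and at least 10 reads within 1 group. The Cnga1 circRNA, from the gene of the rod cGMP-gated channel, had 12, 17 and 0 reads in C3H, 0, 2 and 10 in Pde6b rd1, 9, 0 and 8 in Pde6b rd10 and 18, 14 and 0 in Prph rd2.

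Such gaps, a 0 beside at least 8 reads in both other samples of the group, made up 16 of 121 values of that kind in members (13.2%), in 12 circRNAs. In listed circRNAs of equal detection they made up 38 of 500 (7.60%), and in all listed circRNAs 43 of 3345 (1.29%). The rule itself demands at least 1 sample at 0 per member, so that these shares are no measure of detection in general. What produced the gaps was not tested.

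Asph, from the gene of an aspartate hydroxylase of the endoplasmic reticulum, had 8 to 13 reads in C3H, 8 to 11 in Prph rd2, 7 to 13 in Pde6b rd10 and 0 to 17 in Pde6b rd1. Foxn3, from a forkhead factor gene, had 0 to 13 reads in C3H, 9 to 12 in Prph rd2, 8 to 9 in Pde6b rd10 and 0 to 17 in Pde6b rd1. Pex5l, from the gene of a regulator of HCN channel trafficking, had 5 to 13, 0 to 11, 10 to 12 and 3 to 10 reads in the same order. Frem1, from a basement membrane gene, had 6, 7 and 6 reads in C3H, 2, 5 and 0 in Pde6b rd1, 17, 15 and 12 in Pde6b rd10 and 17, 8 and 6 in Prph rd2. All its Pde6b rd10 values exceeded all C3H values in reads, yet none of these 4 members was called in any comparison that tested it.

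Each model was then compared with the C3H samples. A call needed a fold change of 2 or more together with an unadjusted p below 0.05 in edgeR's quasi-likelihood test across all circRNAs with at least 2 reads in at least 3 of the 6 samples. This filter kept 268 members for Pde6b rd1, 373 for Pde6b rd10 and 360 for Prph rd2, while 256 of 732 were tested in no comparison. A member that is high in 1 group only passes more easily than a rare one, so the counts below speak for the members that passed. The choice of members also let in circRNAs because a whole group was at 0. In Pde6b rd1, 8 of 16 lower calls had a group at 0. In Pde6b rd10 these were 9 of 24 lower and 6 of 15 higher calls, and in Prph rd2 1 of 4 lower and 2 of 5 higher calls. Such members could pass the filter only through the other group, where they are high. These calls partly restate the choice, and so do their p-values and fold bounds. Adjusted p-values use the Benjamini-Hochberg method over all circRNAs tested, and log2 fold changes (log2FC) are model over C3H with standard error (SE). The comparisons share the C3H samples. Members named by smallest p were chosen among those whose 2 groups did not overlap, so that this lack of overlap is no result.

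In Pde6b rd1, called members were nearly all lower than in C3H. Of 268 tested, 16 were lower (5.97%) and 1 was higher (0.373%), against 5.25% lower and 1.12% higher among all 1791 circRNAs tested. The share lower is near the background. No member reached an adjusted p under 0.05 with edgeR or DESeq2, where 17 and 11 had an unadjusted p under 0.05, while limma on log2(TPM + 1) gave 8 members with an adjusted p under 0.05. Over all circRNAs tested, edgeR gave 1, DESeq2 1 and limma 44 with an adjusted p under 0.05. The median log2FC was -0.33 over tested members and -0.18 over all tested circRNAs, on TMM-scaled junction reads. Scaled by gene reads instead, the median of all circRNAs was -0.50, and 22 members were lower and 0 higher.

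The smallest p belonged to the circRNA of Gucy2f, which encodes a guanylate cyclase that makes cGMP in photoreceptors. It had 14, 16 and 14 reads in C3H, 2, 0 and 4 in Pde6b rd1, 19, 19 and 16 in Pde6b rd10 and 12, 9 and 20 in Prph rd2. Every Pde6b rd1 sample lay below every other sample. Its log2FC in Pde6b rd1 was -2.44 (SE 0.64, edgeR adjusted p = 0.247), that of the Gucy2f gene -0.67, and that of the circRNA relative to its gene -1.79. The summed rod markers, given above, were lower in Pde6b rd1 than in C3H too, and their part in the result was not tested. With limma neither this member nor Fam193a kept its call (unadjusted p = 0.109 and 0.16 on log2(TPM + 1)). In bulk samples, fewer photoreceptors and less RNA per photoreceptor cannot be told apart.

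The Fam193a circRNA had 11, 24 and 14 reads in C3H, 7, 0 and 3 in Pde6b rd1, 20, 17 and 14 in Pde6b rd10 and 18, 11 and 15 in Prph rd2. Its Pde6b rd1 values lay below all others, with a log2FC of -1.88 (SE 0.59, edgeR adjusted p = 0.441) beside 0.04 for the gene. The Plch1 circRNA, from a phospholipase C gene, had 9, 7 and 3 reads in C3H, 0 in all Pde6b rd1 samples, 5, 3 and 0 in Pde6b rd10 and 1, 1 and 0 in Prph rd2. It was at least 4.25-fold lower in Pde6b rd1 (edgeR adjusted p = 0.319), counting the group at 0 as 3 reads in all, as for every such bound below. The Socs7 circRNA, from a gene of the suppressors of cytokine signalling, had 2, 7 and 4 reads in C3H, 0 in all Pde6b rd1 samples, 11, 3 and 7 in Pde6b rd10 and 3, 8 and 4 in Prph rd2, and was at least 2.91-fold lower (edgeR adjusted p = 0.471). The single member called higher came from Haus6, of the microtubule-branching augmin complex, with 0, 2 and 1 reads in C3H and 3, 5 and 4 in Pde6b rd1. Its ratio was 5.96 (95% counting interval 1.61 to 32.9), with an unadjusted p of 0.0483 in edgeR.

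The table placed 4 members on the Y, 3 of them in Uty. The Uty member with the most reads (chrY:1152769-1158634), from a Y-linked relative of a histone demethylase, had 5, 6 and 7 reads in C3H, 0 in every Pde6b rd1 sample, 5, 1 and 3 in Pde6b rd10 and 0 in every Prph rd2 sample. It was at least 4.03-fold lower in Pde6b rd1 and at least 6.74-fold lower in Prph rd2. The Uty gene lay at 8.46 to 9.43 FPKM in C3H, 3.16 to 3.87 in Prph rd2, 5.98 to 6.82 in Pde6b rd10 and 0 in Pde6b rd1. Sex makeup, model and age cannot be told apart here. Of the members on the Y, 2 of 2 tested were lower in Pde6b rd1, 1 of 4 in Pde6b rd10 and 1 of 3 in Prph rd2, and none was higher. The X carried 34 members, of which 2 of 12 tested were lower in Pde6b rd1 (5.25% of all circRNAs tested), none of 14 was called in Pde6b rd10 and 1 of 17 was higher in Prph rd2 (1.99% of all).

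In Pde6b rd10, members fell and rose. Of 373 tested, 24 were lower (6.43%) and 15 higher (4.02%), against 5.13% lower and 6.71% higher among all 2339 circRNAs tested. Of those tested, 10 had an adjusted p under 0.05 in edgeR, 2 of them higher and 8 lower by at least 2-fold. Among all 2339 circRNAs there were 79, with 37 higher and 33 lower by at least 2-fold. DESeq2 gave 9 members, with 139 left without an adjusted p, while limma on log2(TPM + 1) gave 15. Over all circRNAs tested they gave 63 and 116. The median log2FC was 0.12 over tested members and 0.06 over all tested circRNAs. Scaled by gene reads, the median of all circRNAs was 0.24, and 20 members were higher and 19 lower.

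The most read of these was the 56.3 kb circRNA of Ano3, which encodes a membrane protein of the anoctamin family. Its ends enclose 10 annotated exons from exon 5 on. It had 16, 53 and 18 reads in C3H, 20, 12 and 18 in Pde6b rd1, 0, 0 and 0 in Pde6b rd10 and 22, 25 and 33 in Prph rd2. No Pde6b rd10 sample had a read, and all 9 others had at least 12. It was at least 34.5-fold lower than in C3H (edgeR adjusted p = 6.99e-06). The other Ano3 member had 0 to 2 reads in the other groups and 0 in Pde6b rd10. The listed 38.1 kb Ano3 circRNA, which shares the start of exon 5 (capitals above), had 10, 7 and 9 reads in C3H, 5, 7 and 5 in Pde6b rd1, 0 in Pde6b rd10 and 11, 10 and 18 in Prph rd2. The Ano3 gene had 448 to 590 reads in C3H and 347 to 466 in Pde6b rd10, a log2FC of -0.36 (SE 0.07, edgeR adjusted p = 0.00021), which is under 1.5-fold.

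Lrba, which encodes an anchor protein of vesicle traffic, had 4 tested members in Pde6b rd10 and all 4 were lower. Its 154 kb circRNA had 5, 10 and 6 reads in C3H, 7, 5 and 3 in Pde6b rd1, 0, 0 and 0 in Pde6b rd10 and 7, 11 and 9 in Prph rd2, which is at least 8.33-fold lower than in C3H (edgeR adjusted p = 0.0124). Its 127 kb circRNA had 3, 12 and 11 reads in C3H and 0, 2 and 0 in Pde6b rd10, its 251 kb circRNA 3, 7 and 4 and 0, 0 and 1, and its 8.35 kb circRNA 9, 7 and 3 and 2, 1 and 0. The C3H and Pde6b rd10 samples did not overlap in any of them. The same held for all 24 members called lower there, so that it adds little to a call. The share among all circRNAs called was not counted. For the last 3, edgeR's adjusted p was 0.037, 0.135 and 0.135. By annotation these 4 circRNAs share exons, and 3 of them share a start, so they are not independent.

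No listed Lrba circRNA tested was called in Pde6b rd10. The 36.9 kb one, with the same start as the 127, 154 and 251 kb members, had 4, 6 and 4 reads in C3H and 10, 5 and 9 in Pde6b rd10, and neither it nor the 2 other listed Lrba circRNAs tested (10.6 and 13.8 kb) was called. The Lrba gene changed by a log2FC of 0.09.

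**Figure D3:**
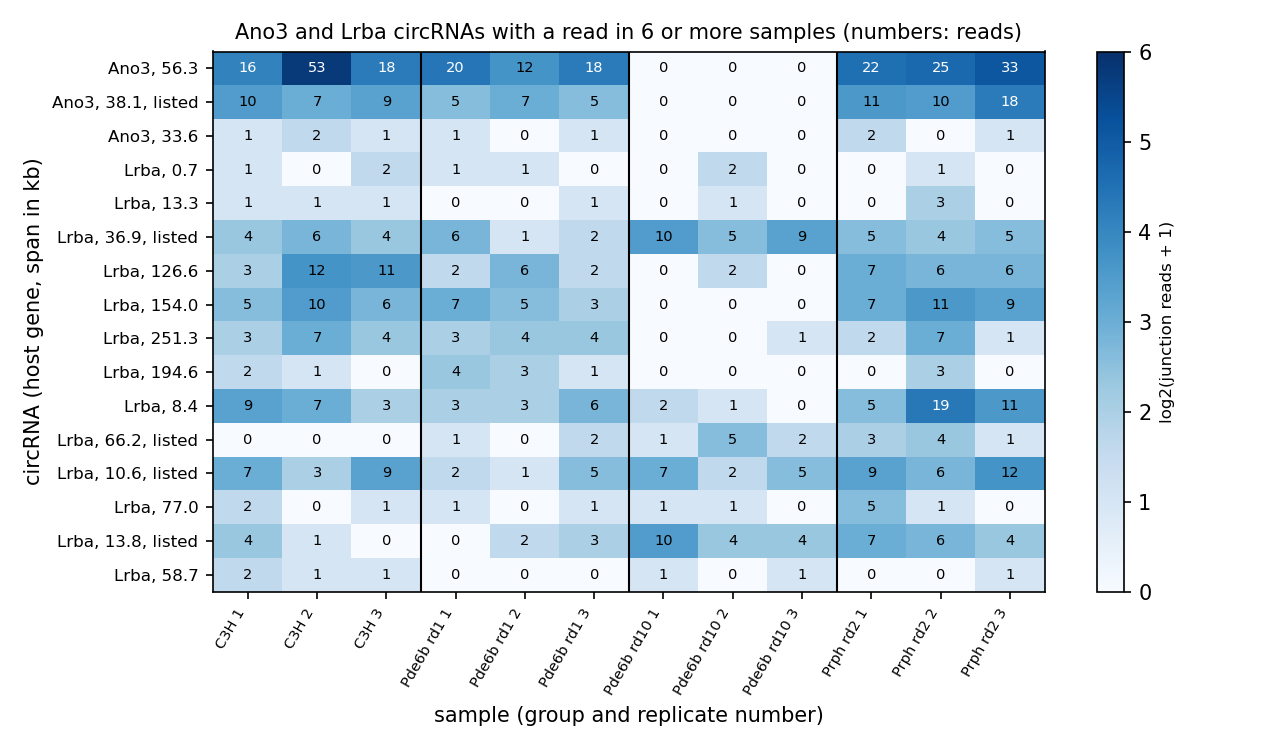
Junction reads (numbers) of every Ano3 and Lrba circRNA read in 6 or more samples, each labelled with its span in kb and marked where circBase lists it, in the 12 samples by group; the shade is log2(reads + 1). In Pde6b rd10 all 3 Ano3 circRNAs are at 0 and the Lrba members have 0 to 2 reads, while the listed 36.9 kb Lrba circRNA has 5 to 10.

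Cerkl, a gene whose loss causes retinal degeneration in people, gave 5 members, and 2 of the 3 tested were lower in Pde6b rd10. The one with the most reads, which ends at a GC splice donor, had 13, 19 and 12 reads in C3H, 0, 7 and 9 in Pde6b rd1, 1, 1 and 0 in Pde6b rd10 and 7, 6 and 9 in Prph rd2. All Pde6b rd10 samples lay below all C3H samples, and so did those of Prph rd2, as the rule for naming it required. The log2FC in Pde6b rd10 was -4.42 (SE 0.70, edgeR adjusted p = 0.000456), a ratio of 0.0382 (95% counting interval 0.00449 to 0.146). The Cerkl gene fell too, by 0.74 on the log2 scale, and relative to it the circRNA fell by 3.76. In Prph rd2 the log2FC was -1.07 (edgeR adjusted p = 0.951).

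The Polb circRNA, from the gene of the repair enzyme DNA polymerase beta, had 11, 15 and 3 reads in C3H, 8, 11 and 5 in Pde6b rd1, 0, 0 and 0 in Pde6b rd10 and 9, 12 and 5 in Prph rd2. It was at least 11.5-fold lower in Pde6b rd10 (edgeR adjusted p = 0.00461) while the gene changed by -0.21 on the log2 scale. Neither of its ends is an annotated exon end, and GG stands where AG is usual. The Trim23 circRNA, from a ubiquitin ligase gene, had 12, 9 and 4 reads in C3H, 6, 3 and 1 in Pde6b rd1, 0, 1 and 0 in Pde6b rd10 and 7, 10 and 14 in Prph rd2, with a log2FC of -4.38 in Pde6b rd10 (SE 1.02, edgeR adjusted p = 0.0151).

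The members that rose in Pde6b rd10 were mostly rare in C3H. The exception among those with the smallest p was Fam169a, with 4, 6 and 6 reads in C3H, 0, 0 and 4 in Pde6b rd1, 15, 24 and 23 in Pde6b rd10 and 7, 10 and 10 in Prph rd2. Its Pde6b rd10 samples lay above all others, with a log2FC of 1.73 (SE 0.42, edgeR adjusted p = 0.0208) beside 0.54 for the gene. The Wdpcp circRNA, from a gene of cilium formation, had 0 reads in C3H, 1, 3 and 0 in Pde6b rd1, 7, 9 and 4 in Pde6b rd10 and 0, 4 and 2 in Prph rd2, at least 5.60-fold higher than in C3H (edgeR adjusted p = 0.0324). The Memo1 circRNA, from a gene of cell motility, had 0 reads in C3H and Pde6b rd1, 5, 4 and 7 in Pde6b rd10 and 3, 4 and 7 in Prph rd2. It was at least 4.48-fold higher in Pde6b rd10 and at least 4.16-fold higher in Prph rd2. With C3H at 0, the Wdpcp and Memo1 circRNAs passed the filter only through the reads of the model compared.

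Mdga2 and Zfp131 rose in Pde6b rd10 as well. Mdga2, from the gene of a synaptic adhesion protein, had 0, 1 and 0 reads in C3H and 5, 4 and 8 in Pde6b rd10, a ratio of 14.3 with a 95% counting interval of 2.24 to 597. Zfp131, from a zinc finger gene, had 0 reads in C3H and 7, 2 and 2 in Pde6b rd10, at least 3.08-fold higher. Neither reached an adjusted p under 0.05 in edgeR (0.131 and 0.150), and both passed the filter only through their Pde6b rd10 reads.

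In Prph rd2, few members differed from C3H. Of 360 tested, 5 were higher (1.39%) and 4 lower (1.11%), against 1.99% higher and 1.36% lower among all 2207 circRNAs tested. No member had an adjusted p under 0.05 in edgeR or DESeq2, where 9 and 5 had an unadjusted p under 0.05, while limma on log2(TPM + 1) gave 3 with an adjusted p under 0.05. Over all circRNAs tested, edgeR gave 0, DESeq2 0 and limma 31 with an adjusted p under 0.05. The median log2FC was 0.10 over tested members and 0.06 over all, or -0.02 over all when scaled by gene reads.

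Besides Memo1, the members higher in Prph rd2 came from Vps16, Usp9x, Uap1 and Lrp11. Vps16, a gene of endolysosomal membrane fusion, had 0, 0 and 2 reads in C3H, 3, 0 and 0 in Pde6b rd1, 9, 3 and 5 in Pde6b rd10 and 5, 4 and 9 in Prph rd2, and was called higher in Pde6b rd10 as well. Its ratio was 8.02 in Prph rd2 (95% counting interval 1.92 to 71.3) and 7.14 in Pde6b rd10 (1.70 to 63.8). Usp9x, an X-linked deubiquitinase gene, had 0 reads in C3H, 0, 1 and 1 in Pde6b rd1, 5, 1 and 2 in Pde6b rd10 and 2, 2 and 9 in Prph rd2. It was at least 3.86-fold higher in Prph rd2, and passed the filter there only through its Prph rd2 reads. Uap1, a gene of sugar nucleotide synthesis, had 2, 5 and 3 reads in C3H and 9, 10 and 8 in Prph rd2, and Lrp11 1, 4 and 2 and 6, 11 and 5, with log2FC of 1.33 and 1.53. In Pde6b rd1 they had 1, 1 and 0 and 2, 1 and 1 reads. In Pde6b rd10, where neither was called, Uap1 had 10, 6 and 7 reads and Lrp11 10, 0 and 6. C3H and Prph rd2 did not overlap in any of the members higher in Prph rd2, which the rule for naming them required.

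The members lower in Prph rd2 were those of Uty, Plch1, Cerkl and Mllt10. Plch1, with 1, 1 and 0 reads against 9, 7 and 3, had a ratio of 0.0938 (95% counting interval 0.0106 to 0.389). Mllt10 had 1 C3H sample at 0 and 1 Prph rd2 sample above 0, and its groups overlapped (unadjusted p = 0.0465 in edgeR).

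**Figure D4:**
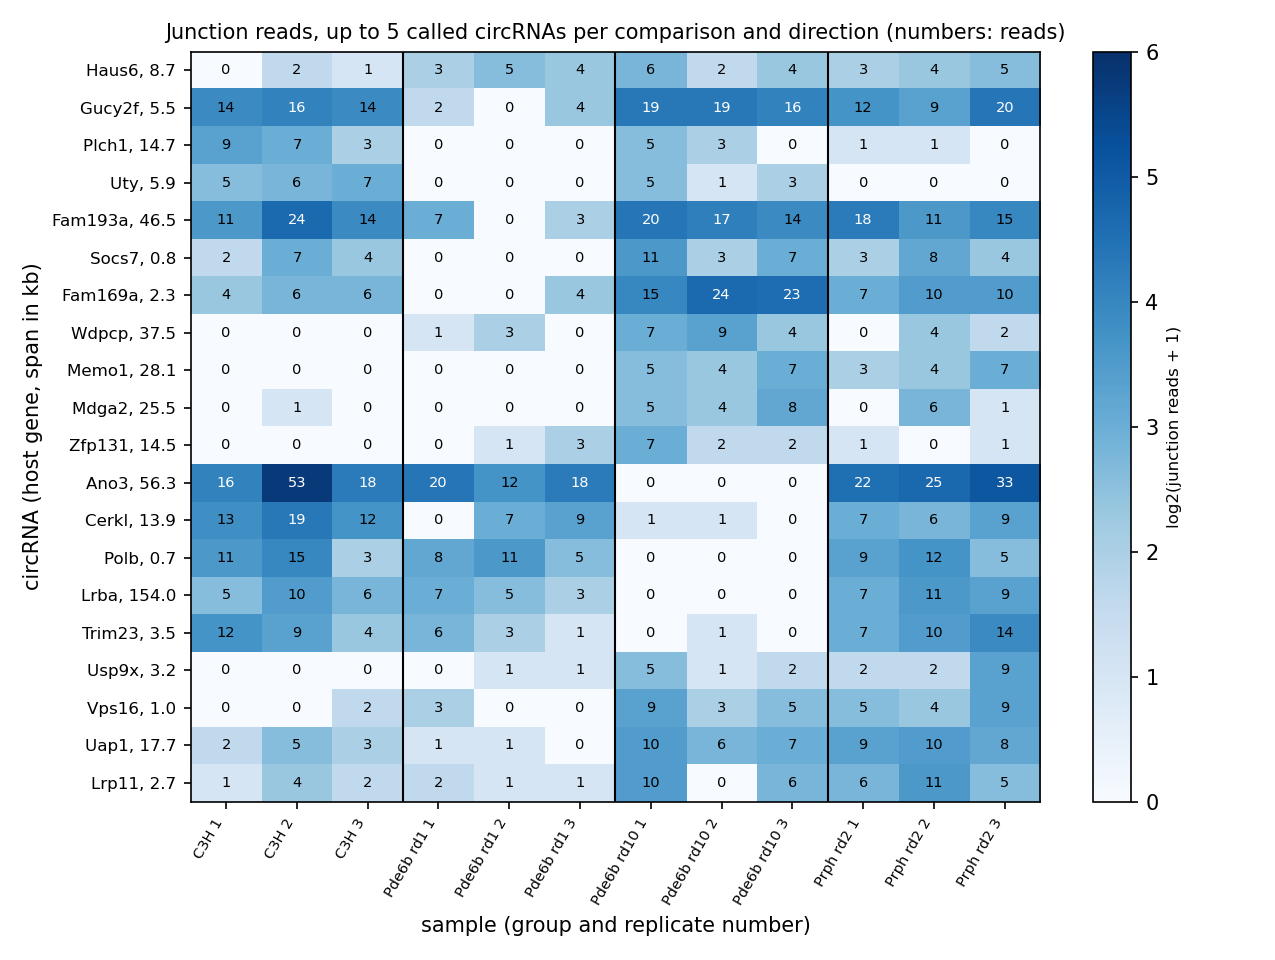
Junction reads (numbers) in the 12 samples by group for up to 5 called members per comparison and direction with the smallest p whose groups did not overlap, labelled by host and span in kb; the shade is log2(reads + 1). Wdpcp and Memo1 are at 0 in all C3H samples and Ano3, Polb and the 154 kb Lrba circRNA in all Pde6b rd10 samples.

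In all, 59 of 476 members tested in at least 1 comparison were called in at least 1, and 6 in 2. These were Memo1 and Vps16 higher in Pde6b rd10 and Prph rd2, Cerkl lower in both, Plch1 and Uty lower in Pde6b rd1 and Prph rd2, and Gm47283 lower in Pde6b rd1 and Pde6b rd10. All comparisons share the C3H samples, which favours a single direction, so that this direction is no separate evidence. The same counts over all circRNAs were not made. Gm47283, a predicted gene that the annotation places on the Y (chrY:90793296-90793680), is named after its values were seen. It had 3, 10 and 6 reads in C3H, 3, 0 and 0 in Pde6b rd1, 0 in Pde6b rd10 and 4, 5 and 4 in Prph rd2, and its gene fell by 1.59 on the log2 scale in Pde6b rd10. The Gm47283 gene did not follow the Y-linked markers, since it lay at 5.36 to 7.09 FPKM in Pde6b rd1, where they were at 0, and at 8.88 to 13.0 FPKM in Prph rd2 against 7.71 to 8.40 FPKM in C3H.

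Some members were missing from 1 group as a whole. All 3 samples were at 0 for 107 members in Pde6b rd1, 40 in Pde6b rd10, 21 in C3H and 18 in Prph rd2 (14.6, 5.46, 2.87 and 2.46% of members). Among the listed circRNAs of equal detection they were at 0 for 130, 50, 57 and 36 of 1636 in the same order (7.95% in Pde6b rd1 and 3.06% in Pde6b rd10), and the Pde6b rd1 libraries were the shallowest on average. The part of depth was not tested. A read in all 9 other samples went with such a gap in 5 members in Pde6b rd1 and 4 in Pde6b rd10, and in 5 and 6 of the listed circRNAs. In Pde6b rd10 these were Ano3, Polb, the 154 kb Lrba circRNA and the 118 kb Psd3 circRNA, from a gene of membrane traffic at synapses. Psd3 had 7, 5 and 6 reads in C3H, 5, 2 and 11 in Pde6b rd1, 0 in Pde6b rd10 and 7, 6 and 7 in Prph rd2, at least 7.14-fold lower (edgeR adjusted p = 0.0226), and its gene fell by 0.69 on the log2 scale.

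In Pde6b rd1 the members at 0 there and read in all 9 other samples were those of Socs7, Gm29427, Tbc1d32, Adgrv1 and Fn3krp. Apart from Socs7 they had few reads elsewhere, 1 to 5 per sample for Gm29427, Adgrv1 and Fn3krp and 1 to 9 for Tbc1d32, a gene of cilium assembly. Adgrv1, which encodes a giant adhesion receptor, had 3, 5 and 1 reads in C3H, 3, 1 and 2 in Pde6b rd10 and 2, 2 and 4 in Prph rd2.

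Few host genes of members were called, and few hosts of listed circRNAs of equal detection. In Pde6b rd1, 2 of 511 tested were higher (0.391%) and 16 lower (3.13%), against 8.98 and 6.03% of all genes tested. In Pde6b rd10, 11 of 512 were higher (2.15%) and 34 lower (6.64%), against 15.9 and 8.08% of all genes, and in Prph rd2 3 of 512 were higher (0.586%) and 4 lower (0.781%), against 2.68 and 1.89%. Of the hosts of listed circRNAs of equal detection, 1.38% were higher and 1.57% lower in Pde6b rd1. These shares were 2.76 and 3.96% in Pde6b rd10 and 0.184 and 0.276% in Prph rd2. Member hosts were thus called lower more often than these hosts in each model. A gene call needed a fold change of 1.5 or more with an unadjusted p below 0.05. Of the 16 members lower in Pde6b rd1, 3 had a host that was lower too, as had 7 of 24 in Pde6b rd10 and 1 of 4 in Prph rd2. Of the members that were higher, 2 of 15 in Pde6b rd10 had a higher host and 1 a lower one, and none of 5 in Prph rd2 had a called host.

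Tested relative to the host gene's counts, most calls stayed. In Pde6b rd1 13 of 267 members were lower and 0 higher, against 5.45% lower and 0.956% higher among all circRNAs tested so, and 12 of the 16 lower members were among them. In Pde6b rd10 14 of 370 were higher and 20 lower, against 6.50 and 4.22%, and these held 13 of the 15 higher and all but 4 of the 24 lower members. In Prph rd2 3 of 358 were higher and 3 lower, against 1.73 and 1.55%, with 3 of the 5 higher and 2 of the 4 lower members among them.

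**Figure D5:**
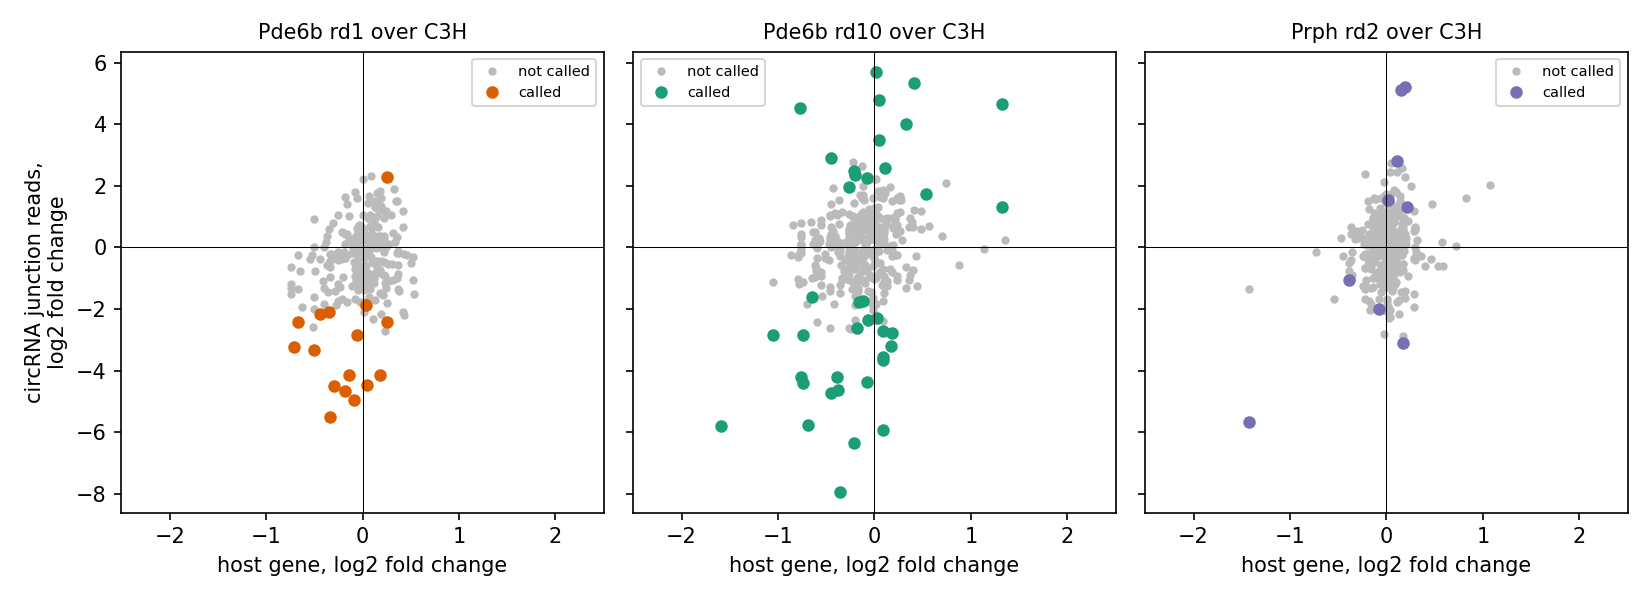
Log2 fold change of the circRNA (vertical) against that of its host gene (horizontal) for tested members, 1 panel per model, with called members in colour and others in grey. The spread is wider along the vertical axis than along the horizontal one. The Uty member in Pde6b rd1, whose gene is at 0 FPKM there, lies outside the horizontal range and is left out.

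Of 30 listed genes that make, bind or destroy circRNAs, 29 were tested, and few passed the call. Adarb1, an RNA editing enzyme, was lower in Pde6b rd1 (log2FC -0.60, SE 0.03). In Pde6b rd10 only Rbm3, a cold-induced RNA-binding protein, was called, and was higher (log2FC 0.65, SE 0.05).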

How the data were processed

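Total RNA of retinas was depleted of ribosomal RNA and sequenced as directional libraries. The authors found back-splice junctions with TopHat2 2.1.1 and CIRCexplorer on mm10, discarded candidates under 2 reads, and deposited junction counts and TPM, which here is a CPM-like scale over the junction reads of a sample, with no length term. The deposited gene counts were made with HTSeq 0.11.2 on GRCm38 and are not normalized, and the authors' FPKM divide them by gene length and gene reads. A circBase entry is as the authors' table gives it.

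From the counts, edgeR 4.0.16 (R 4.3.3) tested each model against C3H with TMM scaling, over the whole table. The test relative to the host used the host's counts (0.5 added, at least 10 reads in each sample) as an offset. Named are the 12 most read members, up to 5 called members per comparison and direction and 4 relative to the host by smallest p with groups apart, the longest 4 and shortest 2, the 5 largest hosts, the 3 most read with ends outside annotated exons (the table holds no circRNA type), and 2 per host list. Some genes that this rule names are not reported here. The members and lists were chosen with earlier results of these data known. Exons came from GENCODE vM21 and sequence from RefSeq GRCm38.p6. Alternatives were DESeq2 1.42.0, limma 3.58.1, other scalings, filters and thresholds, a replicate block and each replicate left out. The fits were tested on simulated data.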

Additional observations from a re-analysis of the deposited data

Results flagged for a closer look

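These members responded differently in 2 models, by the contrast of the models in 1 edgeR fit over all 12 samples with Benjamini-Hochberg adjustment over 3630 circRNAs. Of 616 members tested, 48 were higher and 30 lower in Pde6b rd10 than in Pde6b rd1, 43 and 10 in Prph rd2 against Pde6b rd1, and 15 and 40 in Pde6b rd10 against Prph rd2. Among all circRNAs these were 353 and 160, 217 and 78, and 178 and 173. An adjusted p under 0.05 was reached by 10, 1 and 8 members and by 121, 21 and 63 of all. A fitted difference against a group at 0 depends on the count added by the fit and is no bound.

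Pde6b rd10 lay below Pde6b rd1 by log2 differences of -7.40 for Ano3 (adjusted p = 3.56e-12), -6.39 for Polb (5.12e-05), -5.69 for the 154 kb Lrba circRNA (0.0019) and -3.33 for Cerkl (0.0196). It lay above Pde6b rd1 by 5.61 for Socs7 (adjusted p = 0.0196), 3.36 for Fam169a (0.000363), 2.60 for Gucy2f (0.00139) and 1.82 for Fam193a (0.0277). Pde6b rd10 lay below Prph rd2 by -7.61 for Ano3 (adjusted p = 8.33e-14), -6.07 for the 154 kb Lrba circRNA (0.000458), -6.02 for Polb (0.000244), -4.50 for Trim23 (0.00215) and -3.27 for Cerkl (0.0254). Prph rd2 lay above Pde6b rd1 by 2.25 for Gucy2f (0.0438). Strain and mutation cannot be told apart in Pde6b rd10, and age and model cannot be told apart in any of these.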

How the results depend on the processing

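Members hold few reads, 16 in the median over 12 samples, and the biological coefficient of variation in edgeR was 29.9 to 35.8%. Named members kept their direction in all 407 alternative values over 36 results, and in 65 they no longer passed the call. These results were chosen from the same reads for the smallest p and for groups that did not overlap. A kept direction was thus nearly fixed beforehand and is no measure of robustness. With an adjusted p under 0.05 as the threshold, 17 named results no longer passed and 7 did.

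For Pde6b rd1, Pde6b rd10 and Prph rd2 in this order, 1, 15 and 5 members were called higher and 16, 24 and 4 lower. With an adjusted p under 0.05 there were 0, 2 and 0 higher and 0, 8 and 0 lower. With at least 5 reads in at least 3 samples there were 0, 4 and 1 higher and 4, 6 and 2 lower, since this tests fewer circRNAs, and 2, 9 and 1 relative to the host in place of 13, 34 and 6. DESeq2 gave 0, 8 and 3 higher and, in Prph rd2, 2 lower. With 1 read as the only filter, 2 were higher in Pde6b rd1, 7 lower in Prph rd2 and 12 called relative to the host there. DESeq2's scaling in edgeR gave 2 higher in Pde6b rd1, and library sizes from gene reads 0 there and 3 in Prph rd2. With limma, log2(TPM + 1) gave 3 higher in Pde6b rd1 and 9 higher and 9 lower in Prph rd2, and log2(TPM + 0.1) gave 8 higher there. The cause of these shifts was not tested.

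The replicate numbers share only a number, since same-numbered samples did not deviate together (r between -0.0536 and 0.0326). With the replicate block, 0 and 8 members were higher in Pde6b rd1 and Pde6b rd10 and 10 and 13 lower, and 7 and 21 were called relative to the host.

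With 1 sample left out, higher calls ranged from 2 to 12 in Prph rd2, 5 to 17 in Pde6b rd10 and 1 to 2 in Pde6b rd1, and lower calls from 2 to 9, 5 to 20 and 3 to 22. Relative to the host they ranged from 7 to 16, 19 to 28 and 3 to 19. Without C3H sample 1, 2 or 3, the lower calls were 4, 3 and 5 in Pde6b rd1 and 7, 5 and 7 in Pde6b rd10. Without Pde6b rd10 sample 1, 2 or 3, the higher calls there were 6, 5 and 7. In Prph rd2, without C3H sample 1 or 2 there were 8 and 12 higher calls and 10 and 16 relative to the host, without Prph rd2 sample 3 there were 2 higher and 7 lower, without Prph rd2 sample 2 there were 9 lower and 10 relative to the host, and without C3H sample 1 there were 2 lower. Relative to the host, the calls were 5, 3 and 5 in Pde6b rd1 without C3H sample 1, 2 or 3, and in Pde6b rd10 21 and 19 without C3H sample 1 or 2 and 21 and 20 without Pde6b rd10 sample 1 or 2. Higher calls in Pde6b rd1 were 2 without C3H sample 3 or Pde6b rd1 sample 1 or 2. Without the members with a gap, an alternative added after the data were seen, 1, 15 and 5 were higher and 16, 23 and 3 lower.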

Other observations

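A few called members outside the naming rule come from genes that matter to photoreceptors, and they are named here after their values were seen. Rpgrip1, which anchors a protein complex at the connecting cilium, gave a circRNA with 0, 2 and 1 reads in C3H, 2, 0 and 0 in Pde6b rd1, 9, 7 and 5 in Pde6b rd10 and 0 in Prph rd2 (log2FC 2.47 in Pde6b rd10, edgeR adjusted p = 0.167). Agtpbp1, an enzyme of tubulin trimming whose loss causes photoreceptor and Purkinje cell degeneration, gave 2 members that were higher in Pde6b rd10. The gene rose too, by a log2FC of 1.32. The first had 0 reads in C3H and 5, 3 and 2 in Pde6b rd10, and the second 2, 4 and 4 and 7, 11 and 11. The 2 share a start and are not independent.

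In Pde6b rd1, the lower members included 1 of Pax6, an eye development factor of amacrine and ganglion cells, with 3, 4 and 2 reads in C3H and 0 in all 3 Pde6b rd1 samples, and 1 of Cacna1f, the calcium channel of the photoreceptor terminal, with 3, 6 and 7 against 0, 1 and 0. A Prom1 member had 4, 2 and 4 reads in C3H, 0 in Pde6b rd1, 9, 0 and 6 in Pde6b rd10 and 0, 3 and 0 in Prph rd2. None of these had an adjusted p under 0.05 in edgeR (0.479 to 0.482).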
